A study of Mus musculus with 12 samples.

Results

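The genes described here are 39 mouse genes of lipogenesis, triglyceride assembly and lipid droplets, listed by symbol from the pathway. They comprise transcription factors and a regulator of lipogenesis, enzymes of fatty acid synthesis, desaturation and elongation, acyl-CoA synthetases, enzymes of glycerolipid assembly, droplet coat and CIDE proteins, and lipases with an inhibitor. Of the 39 genes, 38 had a probe set with that 1 symbol, and 37 were bright enough to be tested among 14568 genes. Acsl1, an acyl-CoA synthetase of liver, was not analysed here because no probe set carries its symbol alone in the annotation used. Cidea, a CIDE protein of brown fat, fell below the filter on dim probe sets, at 4.9 to 20.7 across the arrays.

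Livers came from mice of 3 months on a C57Bl/6J background, taken 8 hours after an intraperitoneal injection. The 4 groups of 3 mice were Ire1α null with tunicamycin (2 µg per gram of body weight), Ire1α null with vehicle (150 µM dextrose), control with tunicamycin, and control with vehicle. The labels call the null mice conditional null, and sample titles carry CRE+ in all 4 groups, with Fe- for null and Fe+ for control. Neither the promoter that drives Cre nor the deleted part of the gene is given in the labels. Biotin-labelled RNA was hybridised to Affymetrix arrays, and 1 array was run per liver.

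Ire1α, the product of Ern1, is an endoplasmic reticulum kinase and endoribonuclease that senses unfolded proteins, and tunicamycin raises the load of unfolded proteins by blocking N-linked glycosylation. Hepatocytes make fatty acids from acetyl-CoA through acetyl-CoA carboxylase and fatty acid synthase, under SREBP-1c (from Srebf1) and ChREBP (from Mlxipl). They then desaturate, elongate and esterify them to glycerol, and hold the triglyceride in droplets coated with perilipins or export it in lipoproteins. In mice, fat is known to build up in the liver under endoplasmic reticulum stress.

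The promoters of 5 genes on which the results turn are shown first, from 250 bases before to 50 bases after an annotated start (RefSeq, GRCm38.p6). Srebf1 and Lpin2 fell and Lpin3 and Plin2 rose with tunicamycin in both genotypes, while Acacb fell in control livers and is the 1 member with a match to the ER stress element. Capitals mark matches to 3 motifs: the E-box CACGTG, the CCAAT box, and the ER stress element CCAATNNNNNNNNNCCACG, which contains a CCAAT box. In the Acacb window only the fixed letters of that element are in capitals. The windows lie at chr11:60222532-60222831 on the minus strand, chr5:114165268-114165567 on the plus strand, chr17:71183282-71183581 on the plus strand, chr2:160880420-160880719 on the plus strand and chr4:86670010-86670309 on the minus strand. RefSeq lists 3 starts for Srebf1, 3 for Lpin2 and 2 for Lpin3, and of these the window with the least common of the searched motifs was printed, so its match is no finding. Each is printed 5′ to 3′ along the gene's own strand.
Srebf1: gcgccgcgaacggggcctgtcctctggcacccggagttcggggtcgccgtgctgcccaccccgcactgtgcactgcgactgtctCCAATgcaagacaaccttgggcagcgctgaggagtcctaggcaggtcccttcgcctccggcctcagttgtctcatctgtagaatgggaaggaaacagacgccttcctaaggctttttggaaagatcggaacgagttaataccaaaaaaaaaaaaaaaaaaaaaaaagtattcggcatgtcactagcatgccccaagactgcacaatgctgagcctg
Acacb: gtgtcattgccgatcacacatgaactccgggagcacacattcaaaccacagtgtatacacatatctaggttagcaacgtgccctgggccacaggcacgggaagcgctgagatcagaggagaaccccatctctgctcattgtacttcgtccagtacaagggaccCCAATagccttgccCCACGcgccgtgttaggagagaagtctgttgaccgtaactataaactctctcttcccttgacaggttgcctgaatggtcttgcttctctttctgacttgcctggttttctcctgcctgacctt
Lpin2: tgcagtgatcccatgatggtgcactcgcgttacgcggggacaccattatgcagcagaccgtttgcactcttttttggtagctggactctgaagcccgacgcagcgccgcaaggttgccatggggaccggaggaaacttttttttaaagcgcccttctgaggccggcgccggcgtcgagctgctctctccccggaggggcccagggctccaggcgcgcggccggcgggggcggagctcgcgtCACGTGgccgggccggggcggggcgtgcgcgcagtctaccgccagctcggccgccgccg
Lpin3: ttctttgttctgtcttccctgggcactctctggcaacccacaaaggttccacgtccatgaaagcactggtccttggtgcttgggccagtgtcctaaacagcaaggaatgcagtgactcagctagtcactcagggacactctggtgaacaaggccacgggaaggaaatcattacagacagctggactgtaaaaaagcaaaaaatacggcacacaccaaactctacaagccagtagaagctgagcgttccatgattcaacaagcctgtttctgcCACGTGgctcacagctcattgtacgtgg
Plin2: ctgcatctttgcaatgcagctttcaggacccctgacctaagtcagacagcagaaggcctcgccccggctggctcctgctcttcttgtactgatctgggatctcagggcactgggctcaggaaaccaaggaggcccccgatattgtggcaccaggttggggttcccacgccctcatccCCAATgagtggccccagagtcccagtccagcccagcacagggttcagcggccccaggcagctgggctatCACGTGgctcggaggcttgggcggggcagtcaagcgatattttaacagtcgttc

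Promoter windows were at hand for 32 of the 39 genes, in 45 windows, and both strands were searched. The E-box was found in 5 of the 45 windows, or 11.1% (1 each of Elovl5, Lpin2, Lpin3, Mlxipl and Plin2), and in 7.15% of all 32851 promoters. Counting the annotated start of the window as 0, it ran from -4 to 1 in Plin2, from -9 to -4 in Lpin2 and from 22 to 27 in Lpin3. So of the 5 genes with an E-box, Lpin3 and Plin2 were higher and Lpin2 lower with tunicamycin in both genotypes. Elovl5 was called lower in null livers only, and Mlxipl was called in neither genotype. The ER stress element was found in Acacb alone, from -87 to -69, and in 0.119% of all promoters. The CCAAT box was found in 21 of the 45 windows, or 46.7%, and in 37.4% of all promoters. The sterol regulatory element TCACNCCAC, in 1.24% of all promoters, was found in Acsl1 and Mlxipl. No member window held the unfolded protein response element TGACGTGG (0.676% of all promoters) or the amino acid response element TTGCATCA (0.895% of all promoters). These matches describe letters in the windows and were not tested as sites.

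Normalized intensity below is the intensity after quantile normalization. Changes are differences of log2(normalized intensity + 16), given ± standard error, and a gene is said to rise or fall only where the p of limma's moderated test, adjusted by the Benjamini-Hochberg method over 14568 genes, was under 0.05. Trimmed mean intensities of the 12 arrays ran from 227 to 302 before normalization, and they moved with treatment. They ran from 239 to 302 in null livers with tunicamycin and from 227 to 254 with vehicle. In control livers they ran from 276 to 296 with tunicamycin and from 234 to 260 with vehicle. The stress markers Ddit3 and Hspa5 rose in both genotypes, Ddit3 by 5.37 in null livers and 6.01 in control livers. Ern1 differed between null and control livers by 0.10 with tunicamycin (adjusted p = 0.899) and by -0.13 with vehicle (adjusted p = 0.995), so its probe set does not check the genotype labels unless it lies in the deleted part. Summed hepatocyte markers lay between 100430 and 106694 on every array. Of 11 named kidney markers, 9 were more than 1 log2 unit above all other arrays in null tunicamycin replicate 2. The summed kidney markers ran from 869 to 28682 in null livers with tunicamycin, against 918 to 1131 in null livers with vehicle, 858 to 902 in control livers with tunicamycin and 956 to 1083 in control livers with vehicle. That array is left out in turn below. The 8 Kupffer cell and macrophage markers summed to 4011 to 8193 in null livers with tunicamycin, against 6448 to 9486 in null livers with vehicle, and to 7233 to 9161 in control livers with tunicamycin, against 8441 to 13357 in control livers with vehicle. With tunicamycin their median change was -0.54 in null livers (8 of 8 negative, 1 called) and -0.64 in control livers (7 of 8 negative, 1 called). For these markers the median of null minus control was -0.62 with tunicamycin and -0.41 with vehicle (8 of 8 negative and 0 called in each). Their part in the results was not tested, and in whole liver RNA fewer cells of a type and less RNA per cell cannot be told apart.

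In both genotypes, tunicamycin lowered transcripts of the lipogenic factor Srebf1, of Acss2, which activates acetate, of Fads1 and Elovl2, which act on polyunsaturated fatty acids, and of the acyltransferases Gpam and Agpat2. It raised those of the droplet proteins Plin2 and Cidec and of the phosphatase Lpin3. In null livers, 15 of the 37 genes passed the test, 4 higher and 11 lower with tunicamycin than with vehicle. That is 40.5% of the members, against 16.8% of all genes tested (7.59% higher and 9.23% lower). In control livers, 16 of the 37 passed, 5 higher and 11 lower, or 43.2%, against 25% of all genes tested (11.6% higher and 13.3% lower). The median change of the 37 genes was -0.15 in null livers and -0.34 in control livers, and that of all genes tested -0.07 and -0.11. Of the genes called, 11 were called in the same direction in both genotypes, which is 73.3% of the 15 in null livers and 68.8% of the 16 in control livers. None was called in opposite directions. Without normalization between arrays, 4 members were higher and 5 lower in null livers, among 1989 of all genes called. In control livers 6 were then higher and 7 lower, among 3130 of all genes called.

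The 8 genes that fell in both genotypes were Srebf1, Acss2, Fads1, Elovl2, Gpam, Agpat2, Lpin2 and Cideb, and the 3 that rose in both were Lpin3, Plin2 and Cidec. Fasn, Elovl5, Acsl3 and G0s2 passed in null livers but not in control livers, and Acacb, Scd1, Fads2, Lpin1 and Plin5 passed in control livers but not in null livers. For none of these 9 genes did the test of the difference between the responses pass, as given further on. The plot of both responses shows the 2 genotypes on the same side of 0 for every one of the 20 genes called, apart from Scd1, whose null change was 0.00.

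**Figure D1:**
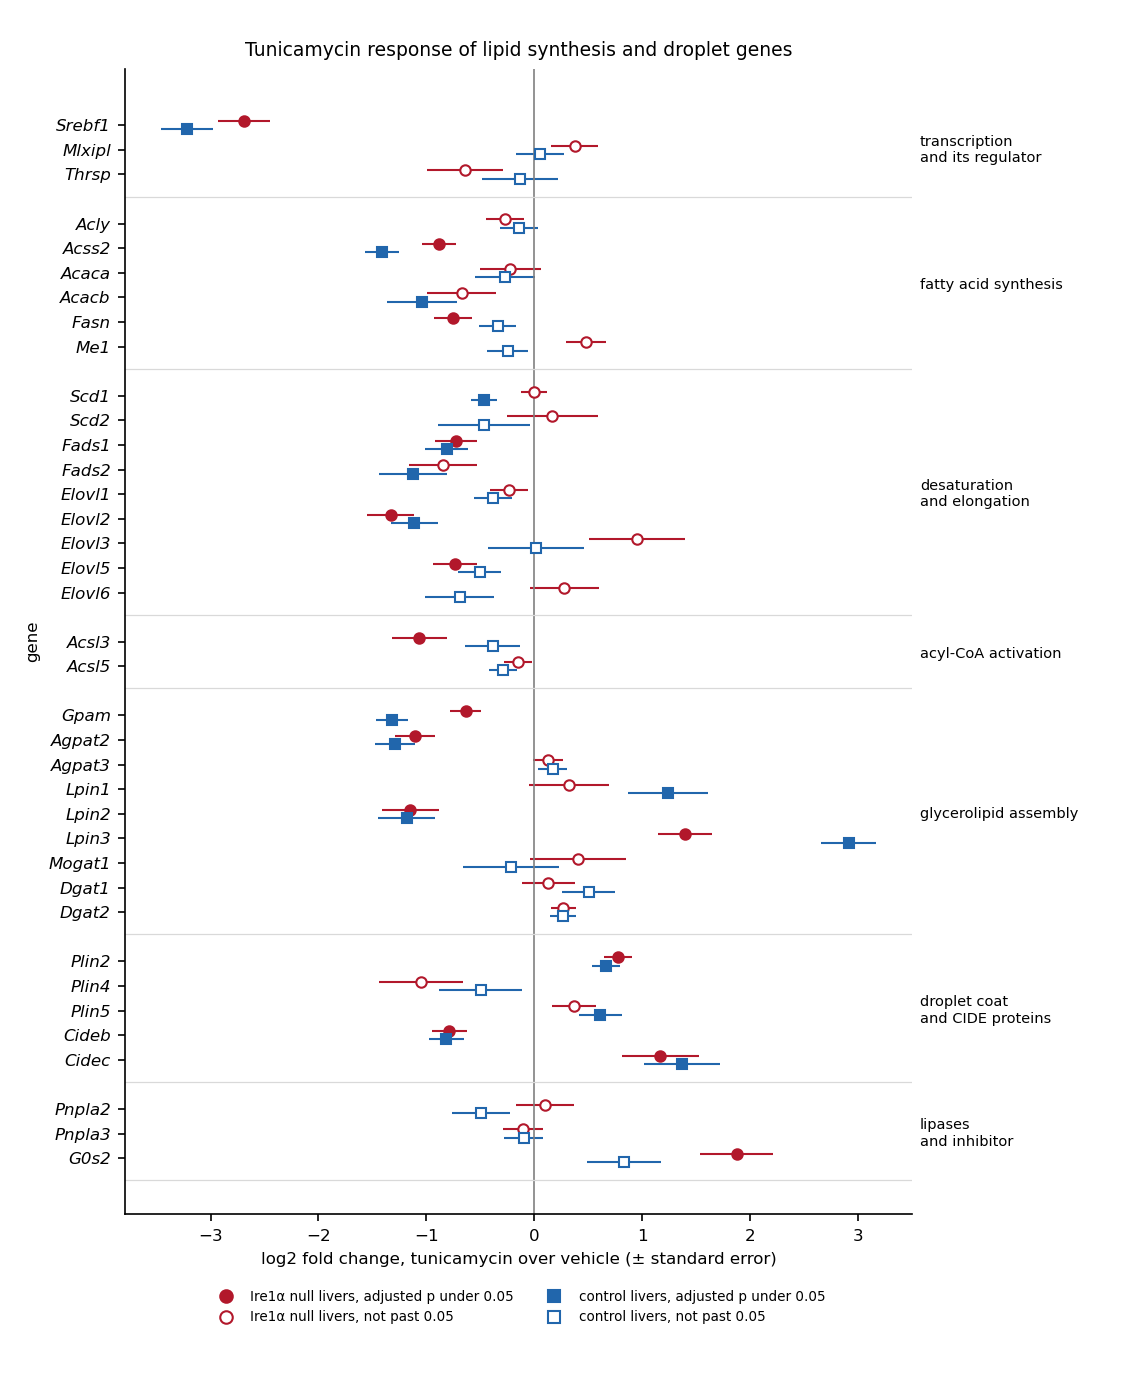
Change with tunicamycin of the 37 tested genes, grouped by role. The horizontal axis is the log2 fold change of tunicamycin over vehicle with its standard error, red circles are null livers (3 arrays against 3), blue squares are control livers (3 against 3), and filled symbols have an adjusted p under 0.05. Srebf1 lies farthest to the left, at -2.69 in null and -3.22 in control livers, and Lpin3 farthest to the right in control livers, at 2.92.

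With tunicamycin the 2 sets of arrays did not overlap for 8 members above and 13 below in null livers, against 13.6% and 19.4% of all genes. In control livers they did not overlap for 8 members above and 17 below, against 18% and 24.5% of all genes. With a minimum of 2-fold added to the call, 3 members were higher and 5 lower in null livers (3.14% and 2.92% of all genes), and 3 higher and 8 lower in control livers (5.42% and 4.29% of all genes). The 5′ to 3′ signal ratio of the actin control probe sets, a measure of RNA and cRNA length, moved with treatment. It averaged 0.309 in null livers with tunicamycin and 0.50 in null livers with vehicle, and 0.328 in control livers with tunicamycin and 0.757 in control livers with vehicle. Once this ratio entered the fit as a covariate, 15 members were called in null livers (3 higher, 12 lower) and 11 in control livers (2 higher, 9 lower), where Acacb, Scd1, Lpin2, Plin2, Plin5 and Cidec lost the call.

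Srebf1 encodes SREBP-1, the membrane-bound factor that, once cleaved, switches on the genes of fatty acid synthesis. Srebf1 had normalized intensities of 392, 272 and 195 in null livers with tunicamycin, against 2432, 1587 and 1669 in null livers with vehicle. The values in control livers were 231, 207 and 222 with tunicamycin, against 2646, 1905 and 2055 with vehicle. It fell by 2.69 ± 0.24 in null livers (adjusted p = 2.52e-05) and by 3.22 ± 0.24 in control livers (adjusted p = 2.79e-06), which is 6.44-fold and 9.31-fold. Every tunicamycin array was below every vehicle array, and the highest tunicamycin value was 392, in null replicate 1.

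Mlxipl, which encodes the glucose-responsive factor ChREBP, ranged from 2508 to 4294 in null livers with tunicamycin, against 2275 to 2944 in null livers with vehicle. Its change was 0.37 ± 0.22 in null and 0.05 ± 0.22 in control livers, and neither passed the test. Thrsp, the thyroid hormone responsive regulator of lipogenesis, was scattered in null livers with tunicamycin at 2090.1, 3598 and 7555, against 7339.7, 5907 and 5009 with vehicle. Its change of -0.64 ± 0.35 had an adjusted p of 0.251. Without null tunicamycin replicate 3, the array with the highest of those 3 values, the change was -1.13 (adjusted p = 0.0149).

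Among the 6 enzymes of fatty acid synthesis, 2 fell in each genotype and none rose. Of all genes tested, 9.23% fell in null and 13.3% in control livers. Acss2 makes cytosolic acetyl-CoA from acetate. Acss2 had normalized intensities of 1016, 1095 and 1027 in null livers with tunicamycin, against 1911, 1671 and 2282 in null livers with vehicle. In control livers it had 922, 1104 and 1161 with tunicamycin, against 2450.3, 3176 and 2915 with vehicle. It fell by 0.88 ± 0.16 in null livers (adjusted p = 0.00268) and by 1.41 ± 0.16 in control livers (adjusted p = 5.75e-05). The tunicamycin arrays of both genotypes lay close together, between 922 and 1161, and below all vehicle arrays.

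Fasn is the fatty acid synthase, which builds palmitate from malonyl-CoA. Fasn measured 1239, 1307 and 1701 in tunicamycin-treated null livers, against 2994, 2084 and 2148 in vehicle-treated null livers. Among control livers, tunicamycin gave 2527, 2206 and 2273, against 3244, 2707 and 2931 with vehicle. It fell by 0.75 ± 0.17 in null livers (adjusted p = 0.012), while its change of -0.34 ± 0.17 in control livers did not pass (adjusted p = 0.184), although the 2 sets of control arrays did not overlap. The difference between these responses was -0.42 ± 0.25 (adjusted p = 0.754). With the arrays used as deposited, without normalization between them, the null change was -0.53 and lost the call (adjusted p = 0.105).

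Acacb is the carboxylase whose malonyl-CoA restrains fatty acid entry into mitochondria. Acacb measured 242, 214 and 535 in tunicamycin-treated null livers, against 462, 550.1 and 473 in vehicle-treated null livers. Control livers with tunicamycin had 205, 282 and 463, against 592, 606 and 708 with vehicle. It fell by 1.04 ± 0.32 in control livers (adjusted p = 0.0337), and its change of -0.67 ± 0.32 in null livers did not pass (adjusted p = 0.186). Null tunicamycin replicate 3 stood among the vehicle arrays, and without it the null change was -1.07 (adjusted p = 0.0265). The control call was lost under 8 of 26 alternative settings, among them the removal of any 1 of 5 control arrays.

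The other 3 enzymes did not pass in either genotype. Acly, which makes acetyl-CoA from citrate, changed by -0.27 ± 0.17 in null and -0.14 ± 0.17 in control livers. Acaca, the cytosolic acetyl-CoA carboxylase, changed by -0.22 ± 0.28 and -0.27 ± 0.28 in null and control livers. Me1, malic enzyme, which supplies NADPH, was 3788, 2712 and 3315 in null livers with tunicamycin, against 2062, 2705 and 2240.5 with vehicle. All 3 null tunicamycin values of Me1 were above the null vehicle values, with a change of 0.48 ± 0.19 (adjusted p = 0.106), and in control livers the change was -0.25 ± 0.19.

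Of the 9 desaturases and elongases, 3 fell in null livers and 4 in control livers, and none rose (9.23% and 13.3% of all genes fell). Elovl2 lengthens long polyunsaturated fatty acids. Elovl2 had normalized intensities of 2276, 1186 and 1973 in null livers with tunicamycin, against 5238, 4089.5 and 4030.4 in null livers with vehicle. The values in control livers were 2136, 2295 and 2048 with tunicamycin, against 5203, 4553 and 4320.3 with vehicle. It fell by 1.33 ± 0.22 in null livers (adjusted p = 0.00144) and by 1.11 ± 0.22 in control livers (adjusted p = 0.0026), a 2.52-fold and a 2.16-fold drop. Null tunicamycin replicate 2, the array with kidney transcripts, was the lowest, at 1186. Under the 26 alternative settings the null change ran from -1.53 to -1.05 and was called under all. The highest tunicamycin array stood at 2295 and the lowest vehicle array at 4030.4.

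Fads1 and Fads2 are the desaturases of polyunsaturated fatty acid synthesis. Fads1 measured 3325, 1880.2 and 2986 in tunicamycin-treated null livers, against 4457, 4235 and 4487 in vehicle-treated null livers. The tunicamycin-treated control livers had 3262, 2481 and 3165, against 5547, 4927 and 5094 in vehicle-treated ones. Fads1 fell by 0.72 ± 0.20 in null livers (adjusted p = 0.0266) and by 0.81 ± 0.20 in control livers (adjusted p = 0.01), with no overlap. The null call was lost under 8 of 26 alternative settings. Among them were removal of null tunicamycin replicate 2 (-0.47, adjusted p = 0.0625) and of any 1 null vehicle array. The control call was lost under 4 of 26. A dimmer second probe set of Fads1 changed by -0.83 in null and -0.01 in control livers and was called in neither. Fads2 stood at 674, 318 and 742 in the null tunicamycin arrays, against 972, 1066 and 925 in the null vehicle arrays, and at 731, 494 and 785 in the control tunicamycin arrays, against 2118, 1097 and 1325 in the control vehicle arrays. Fads2 fell by 1.13 ± 0.32 in control livers (adjusted p = 0.021), and its null change of -0.84 ± 0.32 did not pass (adjusted p = 0.0922). A nearly equally bright probe set of Fads2 changed by -0.72 in control livers and did not pass. The control call was lost under 10 of 26 alternative settings. They include the removal of any of 7 arrays, each of which made that other probe set the brighter one. The control change was then -0.38 without control tunicamycin replicate 2 (adjusted p = 0.72) and -0.38 without control vehicle replicate 1 (adjusted p = 0.687), and the null change was -0.13 without null tunicamycin replicate 2.

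Elovl5, another elongase of polyunsaturated fatty acids, fell in null livers. Elovl5 measured 3266, 2413 and 3903 in tunicamycin-treated null livers, against 5724, 5295 and 4700.3 in vehicle-treated null livers. On the control arrays it was 3406, 4104 and 4224 with tunicamycin, against 6423, 5996 and 4406 with vehicle. The null change was -0.73 ± 0.20 (adjusted p = 0.0264) and the control change -0.51 ± 0.20 (adjusted p = 0.0865), and in both genotypes the tunicamycin arrays lay below the vehicle arrays. Without null tunicamycin replicate 2, the null change of -0.54 lost the call (adjusted p = 0.079) and the control change of -0.50 gained it (adjusted p = 0.0465).

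Scd1 is the main liver desaturase for saturated fatty acids. Scd1 had normalized intensities of 8746, 9106 and 9419 in null livers with tunicamycin, against 8966, 9825 and 8505 in null livers with vehicle. In control livers it had 8072, 6907 and 7806 with tunicamycin, against 10532, 10218 and 10598 with vehicle. It fell by 0.46 ± 0.12 in control livers (adjusted p = 0.0149), and its null change was 0.00 ± 0.12, with a 95% interval of -0.26 to 0.26. The difference between the responses was 0.46 ± 0.17, which had an unadjusted p of 0.0194 and an adjusted p of 0.404.

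The remaining 5 desaturases and elongases passed in neither genotype. Scd2, a related desaturase, was highest in null tunicamycin replicate 2, the array with kidney transcripts, at 696, and the next highest value on any array was 341. Elovl6, which lengthens saturated fatty acids, changed by 0.28 ± 0.32 in null and -0.69 ± 0.32 in control livers, with an interaction of 0.97 ± 0.45 (adjusted p = 0.616). Elovl3, an elongase of very long chains, had 359.5, 262 and 638 in null livers with tunicamycin, against 250.1, 119 and 244 with vehicle, and its change of 0.96 ± 0.44 did not pass (adjusted p = 0.172). Elovl1, another such elongase, changed by -0.23 in null and -0.38 in control livers.

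Acsl3, a droplet-associated acyl-CoA synthetase, was 1 of the 2 tested enzymes that activate fatty acids. Acsl3 measured 383, 259 and 210.5 in tunicamycin-treated null livers, against 691, 407 and 745 in vehicle-treated null livers. Among control livers, tunicamycin gave 532, 589 and 459, against 568, 795 and 723 with vehicle. It fell by 1.06 ± 0.25 in null livers (adjusted p = 0.0141) and its control change of -0.38 ± 0.25 did not pass (adjusted p = 0.309). The null call was lost under 7 of 26 alternative settings, among them its next probe set, which changed by -0.46. Acsl5 changed by -0.15 in null and -0.29 in control livers and passed in neither.

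Among the genes of glycerolipid assembly, the acyltransferases Gpam and Agpat2 and the phosphatase Lpin2 fell and the phosphatase Lpin3 rose in both genotypes, while Agpat3, Dgat1 and Dgat2 passed in neither. Of the 9 genes, 1 rose and 3 fell in null livers, and 2 rose and 3 fell in control livers. Among all genes tested, 7.59% rose and 9.23% fell in null livers, and 11.6% rose and 13.3% fell in control livers.

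Gpam is the mitochondrial acyltransferase that adds the first acyl chain to glycerol phosphate. Gpam had normalized intensities of 2685, 2391 and 2168 in null livers with tunicamycin, against 4210.5, 3474 and 3599.6 in null livers with vehicle. The values in control livers were 1612, 1434 and 1661 with tunicamycin, against 3762, 4493 and 3578 with vehicle. It fell by 0.64 ± 0.15 in null livers (adjusted p = 0.0113) and by 1.32 ± 0.15 in control livers (adjusted p = 5.32e-05). The 3 null tunicamycin arrays lay between the control tunicamycin arrays and all vehicle arrays, with no overlap on either side. Agpat2 adds the next acyl chain and yields phosphatidic acid. Agpat2 measured 1396, 890.2 and 1229 in tunicamycin-treated null livers, against 2266, 2874 and 2391 in vehicle-treated null livers. Control livers with tunicamycin had 1069, 786 and 1053, against 2514, 2239 and 2369.5 with vehicle. It fell by 1.11 ± 0.19 in null livers (adjusted p = 0.00189) and by 1.29 ± 0.19 in control livers (adjusted p = 0.000354), again with no overlap between treatments. Agpat3 changed by 0.13 in null and 0.17 in control livers and passed in neither.

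Lipins are phosphatidate phosphatases that yield diacylglycerol, and the 3 lipin genes moved apart. Lpin2 had normalized intensities of 2219, 1897 and 2390.2 in null livers with tunicamycin, against 4993, 4518 and 4921 in null livers with vehicle. In control livers it had 1512, 1459 and 2039 with tunicamycin, against 2246, 4772 and 4993 with vehicle. Lpin2 fell by 1.15 ± 0.26 in null livers (adjusted p = 0.0115) and by 1.18 ± 0.26 in control livers (adjusted p = 0.00616). Its dimmer probe sets changed in the same direction in both genotypes, and none of them was called. With the mean of its probe sets both calls were lost (adjusted p = 0.127 in null and 0.051 in control livers). Control vehicle replicate 1 lay within the range of the null tunicamycin arrays, and without it the control change was -1.55 (adjusted p = 0.000148).

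Lpin3 was dim without stress. Lpin3 measured 97.8, 96.8 and 173 in tunicamycin-treated null livers, against 21.0, 44.9 and 42.8 in vehicle-treated null livers. The tunicamycin-treated control livers had 367, 254 and 382, against 34.1, 32.4 and 23.4 in vehicle-treated ones. It rose by 1.40 ± 0.25 in null livers (adjusted p = 0.00302) and by 2.92 ± 0.25 in control livers (adjusted p = 9.42e-06), which is 2.64-fold and 7.55-fold. All control tunicamycin arrays were above all null tunicamycin arrays, and those above all vehicle arrays. Because its vehicle values are of the size of the pseudocount, the null change was 1.75 with a pseudocount of 1 and 0.88 with a pseudocount of 64, called under both.

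Lpin1, also a coactivator of fatty acid oxidation genes in liver, was uneven among control vehicle arrays. Lpin1 measured 5009, 5762 and 7304 in tunicamycin-treated null livers, against 5071, 5376 and 3959 in vehicle-treated null livers. On the control arrays it was 6601, 7027 and 7759.9 with tunicamycin, against 1352, 4499 and 4465 with vehicle. It rose by 1.24 ± 0.37 in control livers (adjusted p = 0.0293), and its null change of 0.32 ± 0.37 did not pass (adjusted p = 0.611). The control rise rests in size on control vehicle replicate 1, the lowest array at 1352, and without it was 0.67 (adjusted p = 0.0288). Removal of any 1 control tunicamycin array ended the call, with adjusted p-values of 0.0609 to 0.0786.

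Mogat1, a monoacylglycerol acyltransferase, was dim on all arrays but null tunicamycin replicate 2, at 165 against at most 45.4 elsewhere, and changed by 0.40 ± 0.45 in null and -0.21 ± 0.45 in control livers. Dgat1 and Dgat2 catalyse the last step of triglyceride synthesis. Dgat2 had 9691, 9066 and 8982 in null livers with tunicamycin, against 8030.2, 8072 and 6914 with vehicle. In control livers Dgat2 had 8614, 9224 and 8911 with tunicamycin, against 7175, 7466 and 7532 with vehicle. Both sets of Dgat2 arrays were separate, yet the changes of 0.27 ± 0.12 in null and 0.27 ± 0.12 in control livers did not pass (adjusted p = 0.147 and 0.122). Dgat1 changed by 0.13 ± 0.25 in null and 0.51 ± 0.25 in control livers, and neither passed.

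**Figure D2:**
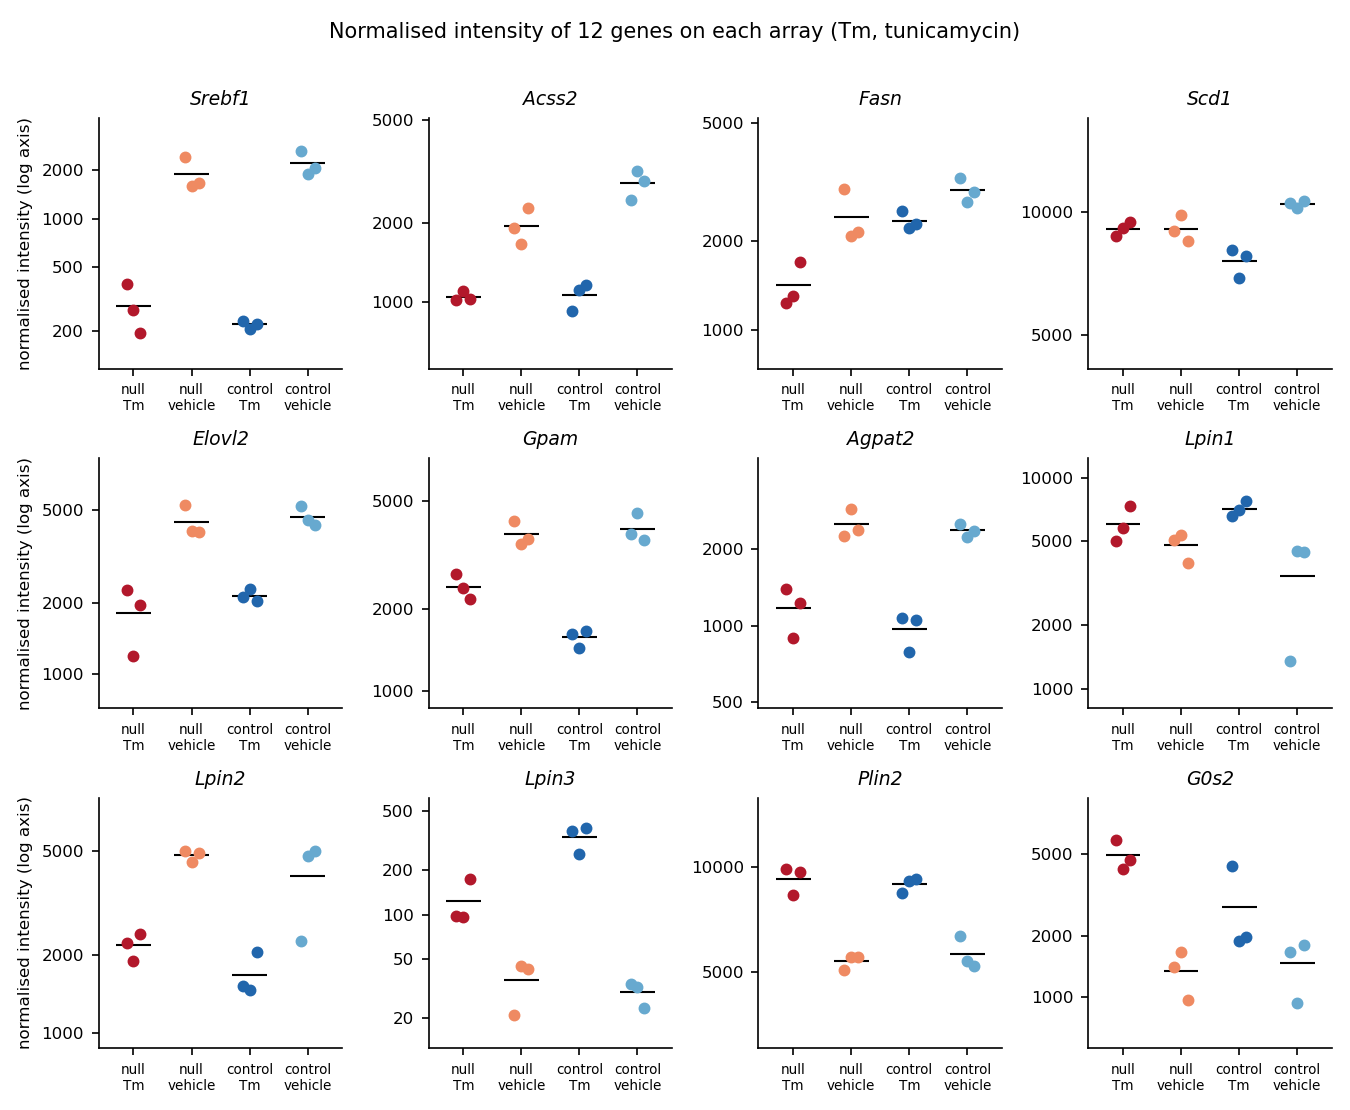
Normalized intensity of 12 genes on each of the 12 arrays, on logarithmic vertical axes that differ between panels. Points are arrays (3 per group), lines are group means, and the groups run from null with tunicamycin (Tm) to control with vehicle. Srebf1 separates by treatment at about the same levels in both genotypes, Gpam and Lpin3 show null tunicamycin arrays between the control tunicamycin and the vehicle arrays, and 1 control vehicle array of Lpin1 lies at 1352.

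Transcripts for droplet proteins went both ways, with 2 of 5 higher and 1 lower in null livers and 3 higher and 1 lower in control livers. The shares of all genes were 7.59% higher and 9.23% lower in null livers, and 11.6% higher and 13.3% lower in control livers. Plin2 encodes the perilipin that coats most liver droplets. Plin2 had normalized intensities of 9825, 8284 and 9642 in null livers with tunicamycin, against 5067, 5521 and 5533 in null livers with vehicle. The values in control livers were 8434, 9124 and 9224 with tunicamycin, against 6332, 5384 and 5212 with vehicle. It rose by 0.78 ± 0.13 in null livers (adjusted p = 0.00186) and by 0.66 ± 0.13 in control livers (adjusted p = 0.00291), or 1.72-fold and 1.58-fold. The lowest tunicamycin array, null replicate 2, was above the highest vehicle array, control replicate 1.

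Cidec encodes the CIDE protein that lets droplets grow by fusion. Cidec measured 118, 54.5 and 69.9 in tunicamycin-treated null livers, against 14.3, 31.3 and 33.9 in vehicle-treated null livers. Among control livers, tunicamycin gave 98.0, 102 and 124, against 72.9, 22.4 and 15.9 with vehicle. It rose by 1.17 ± 0.36 in null livers (adjusted p = 0.0431) and by 1.37 ± 0.36 in control livers (adjusted p = 0.0142), and neither genotype showed overlap. The null call was lost under 13 of 26 alternative settings, and after adjustment for the actin ratio the changes were 0.84 in null livers (adjusted p = 0.106) and 0.63 in control livers (adjusted p = 0.35).

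Cideb, the hepatocyte CIDE protein that loads lipid onto lipoproteins, went the other way. Cideb measured 2508, 1942 and 1843 in tunicamycin-treated null livers, against 3689, 3614 and 3485 in vehicle-treated null livers. Control livers with tunicamycin had 2026, 1921 and 2509, against 4030.4, 3307 and 4025 with vehicle. It fell by 0.79 ± 0.16 in null livers (adjusted p = 0.0059) and by 0.81 ± 0.16 in control livers (adjusted p = 0.00281). The highest tunicamycin array stood at 2509 and the lowest vehicle array at 3307.

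Plin5 encodes the perilipin that ties droplets to mitochondria. Plin5 stood at 3694, 3373 and 4833 in the null tunicamycin arrays, against 3053, 3160.1 and 2868 in the null vehicle arrays, and at 3662, 2866 and 3884 in the control tunicamycin arrays, against 1724, 2885 and 2266 in the control vehicle arrays. It rose by 0.61 ± 0.20 in control livers (adjusted p = 0.0447), with overlap between the arrays, and this call was lost under 16 of 26 alternative settings. Its null change of 0.37 ± 0.20 did not pass (adjusted p = 0.248). Plin4 changed by -1.05 ± 0.39 in null livers (adjusted p = 0.0885) and by -0.50 ± 0.39 in control livers (adjusted p = 0.393), and passed in neither.

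G0s2 encodes the inhibitor of the lipase ATGL, the product of Pnpla2. G0s2 had normalized intensities of 5866, 4210.5 and 4666 in null livers with tunicamycin, against 1408, 1659.8 and 969 in null livers with vehicle. In control livers it had 4381, 1872 and 1977 with tunicamycin, against 1662, 942 and 1799 with vehicle. It rose by 1.88 ± 0.34 in null livers (adjusted p = 0.00302), or 3.67-fold, and its control change of 0.83 ± 0.34 did not pass (adjusted p = 0.0968). The lowest null tunicamycin value was 4210.5, and of the control tunicamycin arrays only replicate 1 reached that level. The difference between the responses was 1.04 ± 0.48 (adjusted p = 0.611). Scaling the arrays by their medians alone gave a control change of 1.04 that was called (adjusted p = 0.0411).

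Pnpla2 itself changed by 0.10 ± 0.27 in null and -0.49 ± 0.27 in control livers and passed in neither. Pnpla3, a lipase-like protein of droplets, was dim, at 14.1 to 42.1 across the arrays, with changes of -0.11 in null and -0.10 in control livers. Plin2, Cidec and G0s2 are also expressed in fat cells. The fat cell marker Adipoq stood at 81.1, 50.4 and 8.0 in null livers with tunicamycin and at 12.8 or less on every other array, below the filter on dim probe sets. Retn, another fat cell marker, stood at 46.3, 46.5 and 23.0 in null livers with tunicamycin, against 16.9, 13.3 and 17.8 with vehicle. Other adipocyte markers did not move alike. In null livers, Lipe averaged 132.6 with tunicamycin and 125.4 with vehicle, Slc2a4 18.3 and 22.3, and Car3 10204 and 12835. The 5 tested adipocyte markers had a median change of 0.03 in null livers, 3 positive and 2 negative. With tunicamycin, 1 of the 5 tested adipocyte markers was called higher in null livers (7.59% of all genes) and 0 in control livers. Of the 10 listed adipocyte markers 7 were named, with sums of 22718 to 24580 in null livers with tunicamycin and 25980 to 26259 with vehicle, most of it Car3 and Cyp2e1, which hepatocytes also express. Null tunicamycin replicate 1, the highest array for Adipoq, was also the highest for G0s2 and Plin2. Without it the null Cidec change was 0.90 and lost the call (adjusted p = 0.14), while the null calls of G0s2 and Plin2 were kept. The part of fat tissue in these results was not tested.

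Null and control livers treated with tunicamycin were then compared, which asks how the genotypes differ under stress. Gpam was higher and Fasn and Lpin3 lower in null livers, so that 3 of 37 members passed, or 8.11%, against 3.99% of all genes tested (0.755% higher and 3.23% lower). The median difference was 0.02 for the members and 0.02 for all genes. This comparison shares its null arrays with the null response and its control arrays with the control response.

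Lpin3 was lower in null livers, at 97.8, 96.8 and 173, against 367, 254 and 382 in control livers, all with tunicamycin. The difference was -1.36 ± 0.25 (adjusted p = 0.00959), or 2.57-fold lower in null livers, and it was called under all 26 alternative settings. Gpam was higher in null livers, at 2685, 2391 and 2168, against 1612, 1434 and 1661 in control livers, a difference of 0.61 ± 0.15 (adjusted p = 0.0372). Fasn was lower in null livers, at 1239, 1307 and 1701, against 2527, 2206 and 2273 in control livers, a difference of -0.73 ± 0.17 (adjusted p = 0.0391). None of the 3 genes had overlapping arrays, and in all 2 members lay wholly above and 4 wholly below the control arrays, against 10.2% and 11.5% of all genes. The Gpam and Fasn calls were each lost under 13 of 26 alternative settings. Among them was removal of null tunicamycin replicate 2 (adjusted p = 0.0726 for Gpam and 0.0978 for Fasn). The mean of both Gpam probe sets differed by 0.08, and the second alone by -0.46 (adjusted p = 0.836 in the fit of all probe sets). With tunicamycin, the Gapdh 5′ to 3′ ratio ran from 0.370 to 0.435 in null and from 0.523 to 0.577 in control livers, without overlap. With this ratio as a covariate, Gpam (adjusted p = 0.0865) and Fasn (adjusted p = 0.0669) lost the call. Lpin3 kept it and Acsl3 gained it (-1.14, adjusted p = 0.0105). The part of RNA length in these differences was not tested.

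Acsl3 was also lower on every null array, at 383, 259 and 210.5, against 532, 589 and 459 in control livers. Its difference of -0.89 ± 0.25 did not pass (adjusted p = 0.0855), and its second probe set differed by -1.18 (adjusted p = 0.00434 in the fit of all probe sets). The Acsl3 difference was called under 6 of 26 alternative settings, among them removal of null vehicle replicate 2 (-0.89, adjusted p = 0.0451). G0s2 differed by 0.94 ± 0.34 (adjusted p = 0.192), and without control tunicamycin replicate 1 by 1.33 (adjusted p = 0.0434). Thrsp differed by -0.77 ± 0.35 (adjusted p = 0.317) and Acly by -0.48 ± 0.17 (adjusted p = 0.198). Srebf1 differed by 0.30 ± 0.24, with a 95% interval of -0.22 to 0.82, and Plin2 by 0.05 ± 0.13, with an interval of -0.24 to 0.33.

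**Figure D3:**
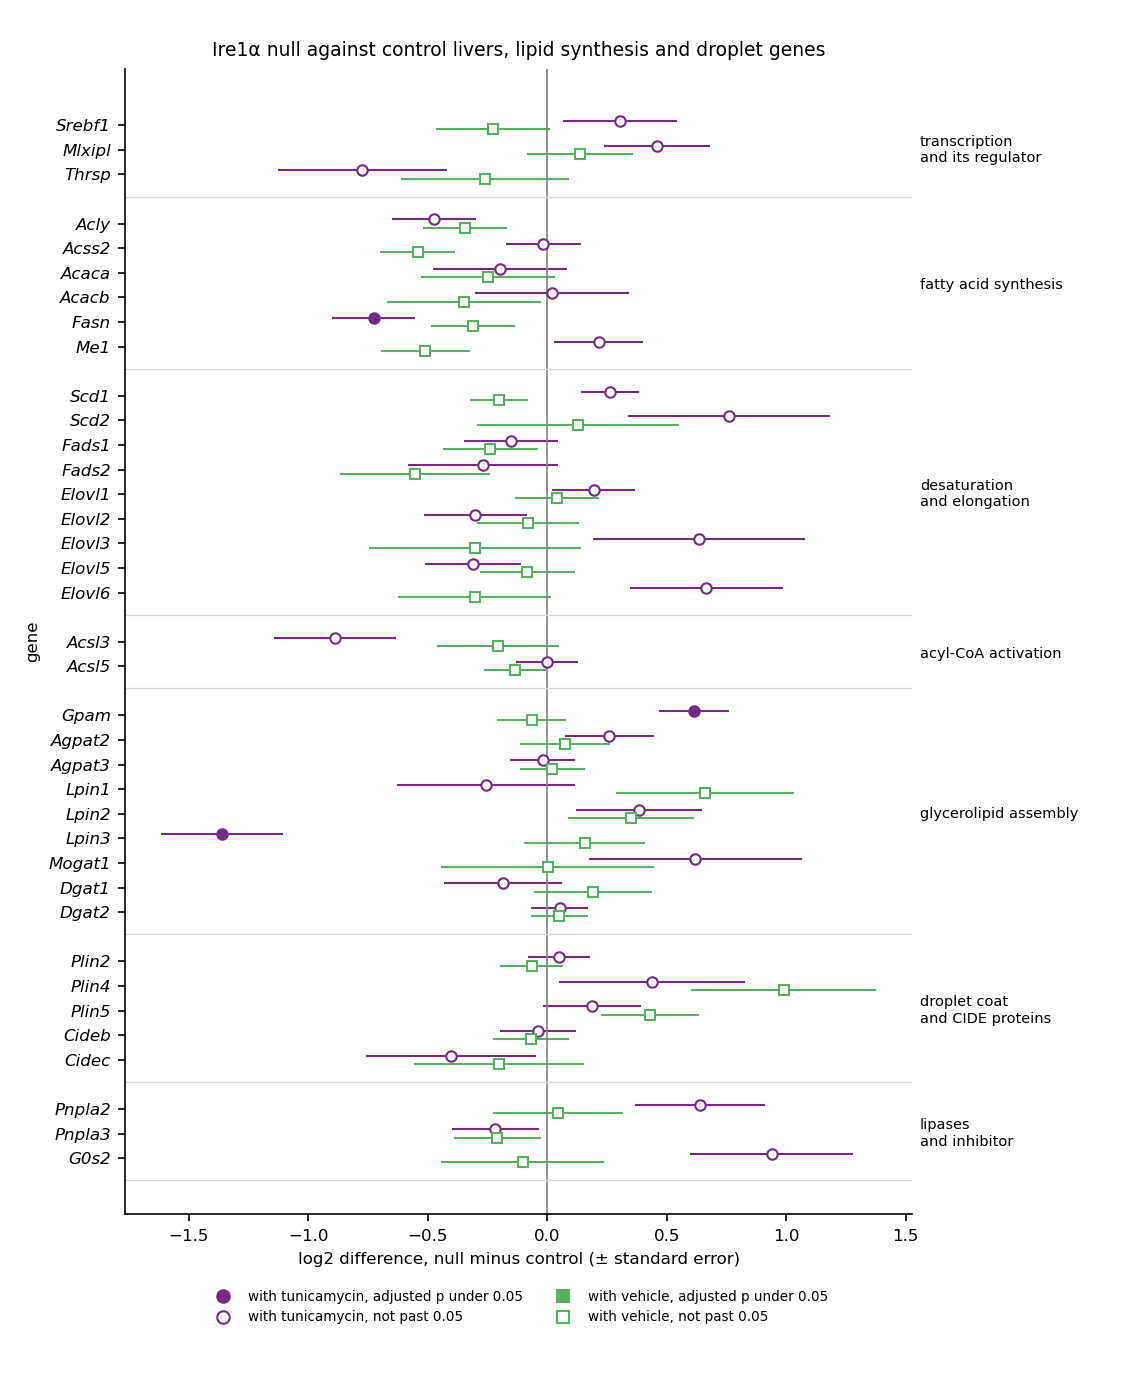
Difference between null and control livers for the 37 tested genes, grouped by role. The horizontal axis is the log2 difference of null minus control with its standard error, purple circles are livers with tunicamycin and green squares livers with vehicle (3 arrays against 3 each), and filled symbols have an adjusted p under 0.05. The filled symbols are Gpam at 0.61, Fasn at -0.73 and Lpin3 at -1.36, all with tunicamycin.

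Without stress, no member differed between null and control livers by limma's test, and neither did any of the 14568 genes (0%). At an unadjusted p under 0.05 there were 3 members (Acss2, Me1 and Plin4) and 597 genes, or 4.1%. Acss2 was lower in null livers with vehicle, at 1911, 1671 and 2282, against 2450.3, 3176 and 2915 in control livers, a difference of -0.54 ± 0.16 (adjusted p = 0.988). Srebf1 differed by -0.23 ± 0.24 and Fasn by -0.31 ± 0.17, with 95% intervals of -0.75 to 0.29 and -0.69 to 0.07. All 6 enzymes of fatty acid synthesis had a negative difference, from -0.54 to -0.25, and a median of -0.35, against -0.08 for the members and -0.0016 for all genes tested. Of the 9 genes of glycerolipid assembly, 8 had a positive difference, with a median of 0.07. The roles were not tested as sets. Null arrays lay wholly above the control arrays for 0 members and wholly below for 6 (3.75% and 4.41% of all genes). Blocking by replicate number and fitting only the groups compared each called 1 gene, which was not a member.

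The interaction, the null response minus the control response, was called for no member by limma's test, against 0.837% of all genes (0.0137% positive and 0.824% negative). At an unadjusted p under 0.05 there were 5 members (Acss2, Me1, Scd1, Gpam and Lpin3) and 1203 genes. Lpin3 had the smallest adjusted p, 0.0903, for an interaction of -1.52 ± 0.36, since it rose by 1.40 in null and by 2.92 in control livers. It was called with a pseudocount of 64 (-1.19, adjusted p = 0.0446) and without null tunicamycin replicate 3 (-1.76, adjusted p = 0.0477). Gpam had an interaction of 0.68 ± 0.21 (adjusted p = 0.237), Me1 of 0.73 ± 0.26 (adjusted p = 0.398) and Acss2 of 0.53 ± 0.22 (adjusted p = 0.527). For Srebf1 it was 0.53 ± 0.34, with a 95% interval of -0.20 to 1.27.

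More than 1 probe set stood for 22 members, in 76 probe sets of members in all, and they did not always move alike. In a fit of every probe set on its own, the second Scd1 probe set fell by 1.52 ± 0.29 in control livers (adjusted p = 0.00404), against -0.46 for the brightest, and both stood near 0 in null livers, at 0.04 and 0.00. The second Me1 probe set rose by 0.87 ± 0.17 in null livers (adjusted p = 0.00706), the second Dgat2 probe set by 0.87 ± 0.24 (adjusted p = 0.0466) and the third Elovl6 probe set by 1.61 ± 0.45 (adjusted p = 0.048), where the brightest probe set of each gene was not called. The third Agpat3 probe set rose by 0.61 ± 0.19 in control livers (adjusted p = 0.0467), where the brightest changed by 0.17. The second Gpam probe set changed by -0.23 ± 0.54 in null and -0.99 ± 0.54 in control livers. The second Lpin1 probe set changed by 1.02 ± 0.37 in control livers, and none of these changes was called. Both bright Acss2 probe sets fell in both genotypes, the second by 1.00 ± 0.21 in null and 1.57 ± 0.21 in control livers.

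**Figure D4:**
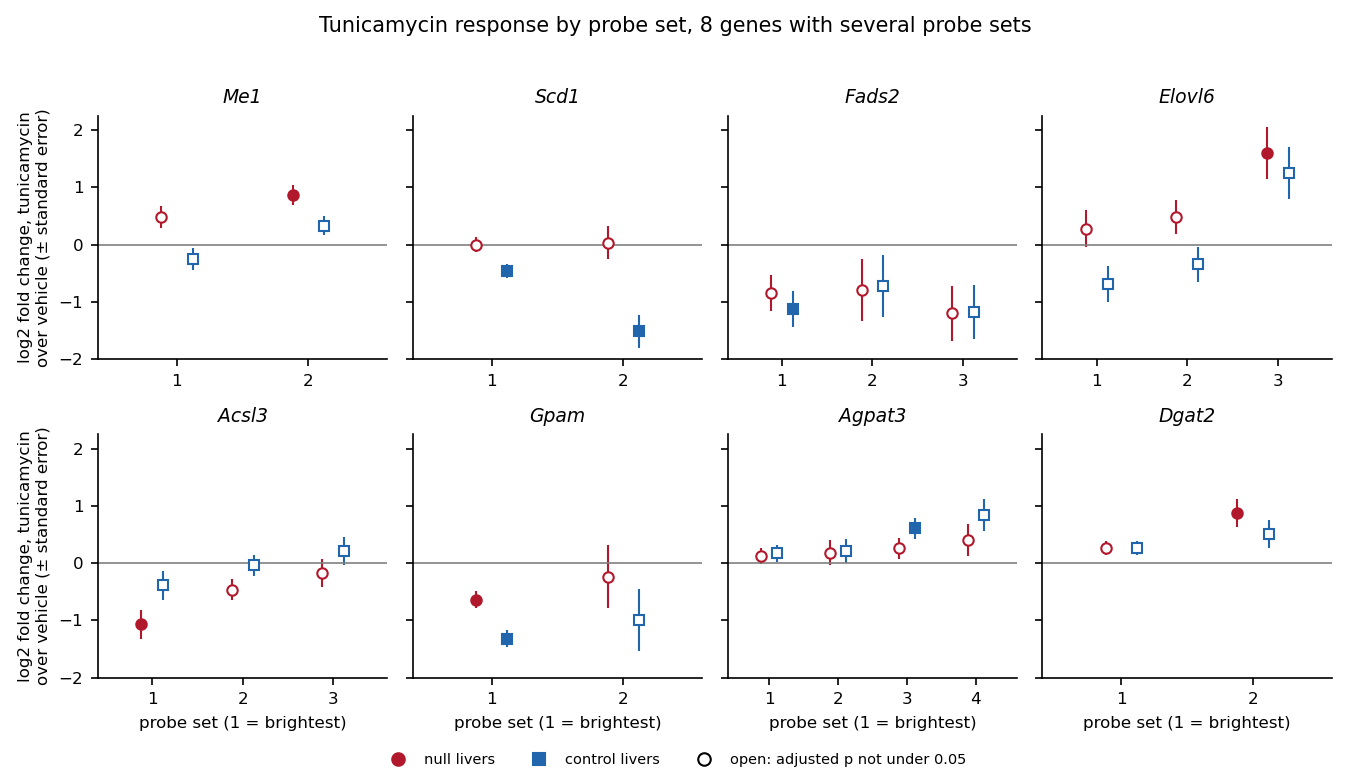
Change with tunicamycin for each probe set of 8 genes, numbered from the brightest. The vertical axis is the log2 fold change of tunicamycin over vehicle with its standard error, red circles are null livers, blue squares are control livers, and open symbols did not reach an adjusted p under 0.05. The second Scd1 probe set lies at -1.52 in control livers and at 0.04 in null livers, and the third Elovl6 probe set lies above 0 in both genotypes, unlike the other control values of that gene.

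Beside the members, 61 genes of 5 lists around the pathway were counted, of which 53 were tested. In null livers 4 rose and 7 fell with tunicamycin, or 20.8%, against 16.8% of all genes tested. In control livers 4 rose and 12 fell, or 30.2%, against 25% of all genes. With tunicamycin, 2 of the 53 were higher in null than in control livers, or 3.77%, against 3.99% of all genes. These shares of the 5 lists together lie near those of all genes, and the values below describe single genes. For the counts per list below, 7.59% of all genes tested rose and 9.23% fell in null livers. In control livers 11.6% of all genes rose and 13.3% fell. None of the 53 was called with vehicle or in the interaction (at an unadjusted p under 0.05, 2 and 4 genes).

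Of 16 genes that control lipogenic transcription, 1 rose and 3 fell in null livers and 1 rose and 6 fell in control livers. Those that fell were 18.75% of the list in null and 37.5% in control livers, against 9.23% and 13.3% of all genes. Insig1, a sterol-regulated anchor of SREBPs and itself one of their targets, fell by 1.77 ± 0.36 in null livers (adjusted p = 0.00609), and its control change of -0.77 did not pass (adjusted p = 0.148). Insig2, the other such anchor, rose by 0.57 ± 0.17 in null livers (adjusted p = 0.0433) and changed by -0.04 ± 0.17 in control livers. Null minus control, it differed by -0.64 ± 0.17 with vehicle (adjusted p = 0.988) and by -0.04 ± 0.17 with tunicamycin. Usf1 and Usf2, E-box factors, fell in both genotypes, Usf2 by 1.16 in null and 1.10 in control livers. Mlx was the 1 gene of the list that rose in control livers, by 0.48 ± 0.13 (adjusted p = 0.0187), and changed by 0.06 ± 0.13 in null livers. In control livers Srebf2, the factor for cholesterol synthesis, fell by 0.92 ± 0.18 (adjusted p = 0.00321), Ppara, the factor for fatty acid oxidation, by 0.94 ± 0.21 (adjusted p = 0.007), and Nr0b2, a repressor induced by bile acids, changed by -3.06 ± 0.71 (adjusted p = 0.00764). Mid1ip1, a partner of Thrsp that activates acetyl-CoA carboxylase, fell by 1.08 ± 0.21 in control livers (adjusted p = 0.00303) and was higher in null than in control livers with tunicamycin, by 0.86 ± 0.21 (adjusted p = 0.047).

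Among 12 other acyl-CoA, glycerol and glycerolipid enzymes, 2 rose in null livers, and 2 rose and 2 fell in control livers. Acsl4, an acyl-CoA synthetase that prefers arachidonate, rose by 1.48 ± 0.15 in null livers (adjusted p = 6.58e-05) and by 1.43 ± 0.15 in control livers (adjusted p = 3.75e-05). Gpat3, an acyltransferase of the endoplasmic reticulum for the same step as Gpam, rose by 1.16 ± 0.28 in null and 0.85 ± 0.28 in control livers, where Gpam fell. Agpat1 fell by 0.85 ± 0.29 and Gpd1, which makes glycerol phosphate, by 0.49 ± 0.15 in control livers.

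Of 13 other droplet proteins and lipases, 1 rose and 2 fell in each genotype. Hilpda, a droplet-associated inhibitor of ATGL, rose by 1.08 ± 0.20 in null livers (adjusted p = 0.00291) and by 1.69 ± 0.20 in control livers (adjusted p = 7.46e-05). Hsd17b11, a droplet-bound dehydrogenase, fell by 0.60 in null and 0.78 in control livers. Ces1d, a liver triglyceride lipase, fell by 1.90 ± 0.24 in control livers (adjusted p = 0.000123), and with tunicamycin was higher in null than in control livers by 1.02 ± 0.24 (adjusted p = 0.0339). Fitm1, which promotes droplet formation, fell by 0.89 ± 0.21 in null livers.

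Of 7 genes for substrate and NADPH supply, 1 fell in each genotype, Idh1 by 0.56 ± 0.12 in null livers and Pcx, pyruvate carboxylase, by 0.49 ± 0.16 in control livers. Of 5 partners of the elongation cycle, Hacd3, a dehydratase, fell by 0.49 ± 0.15 in null and by 0.50 ± 0.15 in control livers.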

How the data were processed

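RNA of 12 livers, 3 in each of 4 groups, was isolated with Trizol, labelled with biotin as cRNA and hybridised to Affymetrix arrays, per the labels' protocols. The authors deposited a linear intensity per probe set for each array. The labels do not say how probes were summarised, scaled or filtered, and trimmed means from 227 to 302 show that the arrays were not on 1 scale.

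Of 45101 probe sets, 64 controls were left out. In the platform annotation 34945 probe sets had 1 gene symbol, 932 had several and 9160 had none, and only the 34945 were used. Looking up 34741 of them by gene ID in a RefSeq gene list (GRCm38.p6) changed 0 symbols. Intensities were taken as log2(intensity + 16) and quantile normalized, the dimmest 30% of probe sets by mean were removed, and the brightest probe set by mean over 12 arrays stood for its gene, which left 14568 genes. limma 3.58.1 (R 4.3.3, with data.table version 1.17.8) fitted the group means with lmFit and tested them with eBayes, with 8 residual degrees of freedom before moderation and Benjamini-Hochberg adjustment over all genes. The tests were 2-sided with a threshold of 0.05, in 5 contrasts. Normalized intensity is 2 to the power of the normalized log2 value, minus 16. Promoters were searched with Python 3.11.15 and figures drawn with matplotlib 3.10.9.

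The samples are biological replicates per the labels, and the number of arrays limits the precision. The members and the lists around them were chosen with earlier results of these data known. All members were named, and values on every array were given for those called in at least 1 contrast. Up to 4 called genes per pathway list and contrast were named by smallest adjusted p, and Mlx besides. Alternatives covered the pseudocount (1 and 64), the filter on dim probe sets (none and 50%), the scaling, the probe set rule, eBayes options, array weights, the replicate number as a block, the Gapdh and actin 5' to 3' ratios, the samples fitted, a 2-fold minimum and each array left out.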

Additional observations from a re-analysis of the deposited data

How the results depend on the processing

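No called value of the 37 members changed direction under any alternative. Of 4753 values of single members, 4437 kept their direction and their side of the threshold, 122 lost a call, 33 gained one, and 161 differed in sign with neither value called. Calls of Srebf1, Acss2, Elovl2, Agpat2, Lpin3, Plin2 and G0s2 in null livers, and of Srebf1, Acss2, Elovl2, Gpam, Agpat2 and Lpin3 in control livers, were kept under all 26 alternatives that recompute the test, and that of Cideb in control livers under the 25 in which it was tested. A minimum of 2-fold, counted apart, ends the null calls of Acss2 and Plin2 and the control call of Cideb.

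In null livers, the 15 members called with tunicamycin against vehicle became 9 with values as deposited (4 higher, 5 lower), 11 with array medians centred (4 higher, 7 lower) and 8 with a minimum of 2-fold, while all genes called went to 1989 and 1959 under those 2 scalings, against 2449. In control livers, the 16 became 13 with values as deposited and also with medians centred (6 higher, 7 lower each), with 3130 and 3281 of all genes, against 3636. As deposited, the median change of all genes was 0.08 in null livers, against -0.07 after quantile normalization. With each array left out in turn, 11 to 16 members were called in null livers and 11 to 16 in control livers. The 11 in null livers were without null vehicle replicate 1, which loses Fads1, Elovl5, Acsl3 and Cidec, and the 11 in control livers without control tunicamycin replicate 2, which loses Acacb, Scd1, Fads1, Fads2 and Lpin1. Without null tunicamycin replicate 2, the array with kidney transcripts, 13 of the 15 null calls were kept and none gained, and 15 of the 16 control calls were kept with Elovl5 gained. With the actin ratio as a covariate, 1765 genes in all were called in control livers, against 3636, and 1804 in null livers, against 2449.

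Between null and control livers with tunicamycin, the 3 members called became 1 with a pseudocount of 1, with values as deposited, in a fit of only the groups compared and with a minimum of 2-fold, and 7 with array quality weights. They ranged from 1 to 4 with an array left out: Lpin3 alone without null tunicamycin replicate 2, null vehicle replicate 3 or control tunicamycin replicates 2 or 3, with gains of Thrsp without null tunicamycin replicate 3, Acsl3 without null tunicamycin replicate 1 or null vehicle replicate 2, and G0s2 without control tunicamycin replicate 1 (and with array weights). Between the genotypes with vehicle 0 members were called with any array left out (0 to 0). For the interaction 1 member, Lpin3, was called with a pseudocount of 64, and 0 to 1 with an array left out. In a fit of every probe set on its own, 17, 16, 2, 0 and 0 members were called for the brightest or another probe set in the 5 contrasts, in the order of the text.

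With the replicate number as a block, 14 members were called in null livers, 15 in control livers, 1 (Lpin3) between the genotypes with tunicamycin, 0 with vehicle and 0 in the interaction. Deviations of arrays with the same number had mixed correlations, from -0.41 to 0.49 in 18 pairs, of which 5 were over 0.1. The highest was between control tunicamycin and control vehicle replicates 3. No label links the numbers between groups, and they were not taken as pairs. The causes of these shifts were not tested. Precision is limited by 3 arrays per group and by dim probe sets, such as those of Lpin3, Cidec, Mogat1 and Pnpla3.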
